A study of Mus musculus with 6 samples.

Results

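The genes described here are 10 members of the NRF2 antioxidant system, chosen by name out of 57180 genes in the deposited expression table. Each of the 10 names matched 1 gene, and all 10 were among the 14151 genes with enough reads to be tested. Primary hepatocytes, the main metabolic cells of the liver, were isolated from male LOXP mice, which carry a floxed STING gene, and from male STINGLKO mice, in which the Albumin promoter drives Cre in hepatocytes to delete STING. All cultures of both groups were kept with dexamethasone and treated with palmitic acid, a saturated fatty acid, at 0.1 mM for 24 h, so no library shows untreated cells. RNA was sequenced in 3 libraries per group. All mice were on a C57BL/6 background and 8 to 10 weeks old. The sources used here do not say whether each library came from its own mouse, and if not, the p-values measure the spread between these libraries, which may be technical.

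NRF2, encoded by *Nfe2l2*, is a transcription factor that pairs with small MAF proteins and binds antioxidant response elements in DNA. In resting cells KEAP1 presents NRF2 to a CUL3 ubiquitin ligase for degradation. Electrophiles and oxidants modify cysteines of KEAP1, NRF2 then accumulates, and genes for glutathione synthesis, thioredoxin-linked reduction, quinone reduction, heme breakdown and NADPH supply are transcribed. Because this control acts largely on the protein, the mRNA of *Nfe2l2* does not have to follow NRF2 activity.

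Promoter sequences of the members are shown first, because the antioxidant response element is the DNA feature that defines NRF2 targets. RefSeq windows on GRCm38.p6, from 250 bases before to 50 bases after a transcription start, were given for 8 of the 10 genes, in 10 windows. *Gclc* and *Hmox1* were not matched. The core searched was TGACNNNGC on both strands, which 12.4% of all 32851 such windows hold and which 3781 of the 27025 genes with a window have in at least 1. It was present in 5 of the 10 windows, from 5 of the 8 genes: *Prdx1*, *Srxn1*, *Txnrd1*, *Nfe2l2* and *Gclm*. In *Srxn1* the match began 29 bases after the start and read GCTAGGTCA on the gene's strand. In the other 4 genes it lay before the start, and the matches are shown with up to 15 bases on each side, in the direction of the gene. Capitals mark the match, and where they start with GC the core stands on the opposite strand.
*Prdx1* (chr4:116685451-116685489, plus strand): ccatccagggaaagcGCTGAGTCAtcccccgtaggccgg
*Txnrd1* (chr10:82859099-82859137, plus strand): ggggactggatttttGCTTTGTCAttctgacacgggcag
*Gclm* (chr3:122245408-122245446, plus strand): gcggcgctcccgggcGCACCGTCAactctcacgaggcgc
*Nfe2l2* (chr2:75704880-75704913, minus strand): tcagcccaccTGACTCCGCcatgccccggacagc

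A second motif, TGANTCA, the type of site that AP-1 factors bind and that can lie inside an antioxidant response element, was found in 7.81% of all windows and for 2425 of the 27025 genes. Among the members, *Prdx1* and *Srxn1* held 2 each. One of the 2 sites in *Prdx1* overlaps the antioxidant response core printed above. The sites of *Srxn1*, the gene with the largest change among the 10, are shown with capitals on the TGANTCA match.
*Srxn1*, 102 bases before the start (chr2:152105407-152105443, plus strand): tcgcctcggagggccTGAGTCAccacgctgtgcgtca
*Srxn1*, 45 bases before the start (chr2:152105464-152105500, plus strand): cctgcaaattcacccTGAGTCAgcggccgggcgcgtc

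The matches are letters in a window and were not measured as bound sites in these samples. No match of either motif was found in the windows of *Slc7a11*, *Nqo1* and *Keap1*, nor in the windows at 2 of the 3 *Txnrd1* starts. Elements outside the windows, or with letters other than the searched motifs, would be missed.

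**Figure D1:**
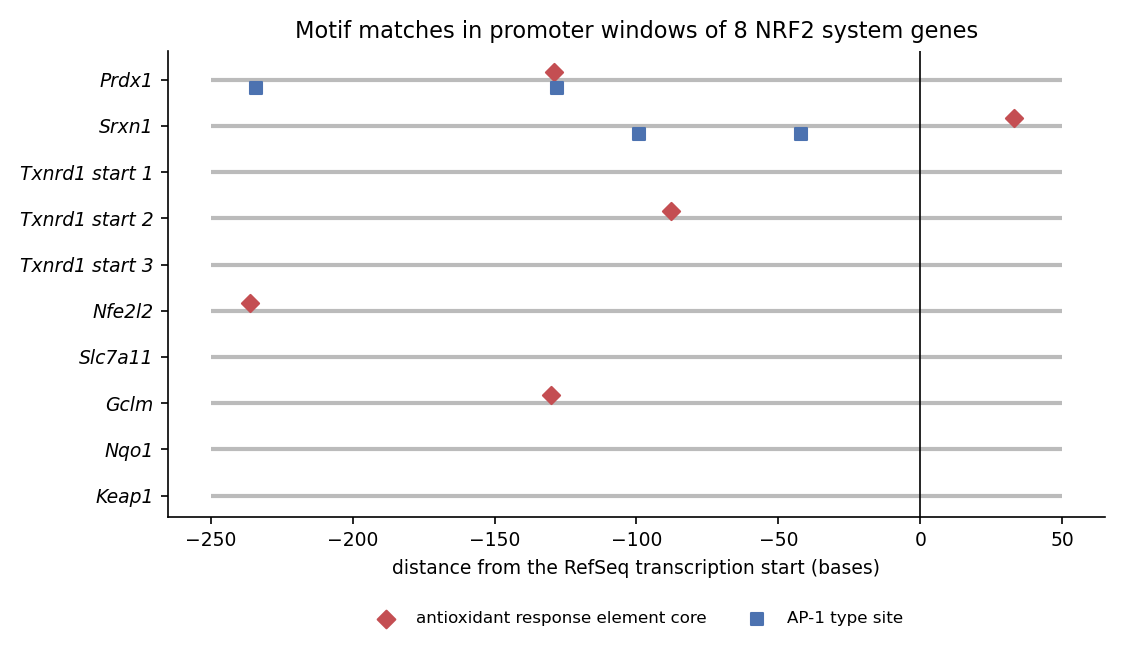
Positions of both motifs in the 10 promoter windows of 8 NRF2 system genes. The horizontal axis gives the distance from the RefSeq transcription start in bases, diamonds mark the antioxidant response element core and squares the AP-1 type site. The core is seen in 5 of the 8 genes, and in *Prdx1* 1 of the 2 AP-1 type sites overlaps it.

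Counted reads per library ran from 14726983 to 18536985, and mitochondrial genes took from 3.86% to 4.65% of them. *Sting1*, the targeted gene, had 19, 16 and 23 counts in LOXP and 24, 23 and 15 in STINGLKO. In edgeR's quasi-likelihood test, from which the adjusted p-values below also come, its log2 fold change was -0.08 with an SE (standard error) of 0.30 and an adjusted p of 0.883, with a 95% interval of the ratio from 0.589 to 1.52. A loss of *Sting1* was thus not seen in these gene-level counts. Which exons the deletion removes was not checked here, reads on exons outside it would still be counted, and higher or lower always refers to the libraries labelled STINGLKO relative to LOXP. Hepatocyte markers were abundant in each library, with *Alb* at a mean FPKM of 7670 in LOXP and 6541 in STINGLKO. FPKM scales a read count to gene length and library depth, so that levels of different genes can be compared.

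The effector genes of the NRF2 system were higher in the libraries labelled STINGLKO, while the genes for NRF2 and KEAP1 themselves did not pass the test. Of the 10 genes, 8 rose with an adjusted p under 0.05 and 0 fell in edgeR, where 11.5% of all tested genes were called higher and 11.6% lower. At an unadjusted p under 0.05, 1 gene, *Nfe2l2*, would count as lower, and DESeq2 and limma also called 0 lower. The median log2 fold change of the 10 was 0.81, against -0.0021 over all tested genes. By the study's own criteria, which also ask for a fold change above 2 and for at least 1 group with a mean FPKM above 1, 3 of the 10 were called higher, *Srxn1*, *Slc7a11* and *Nqo1*, and 0 lower. Of all tested genes 2.05% met these criteria, 0.558% higher and 1.49% lower. Normalized counts of all STINGLKO libraries lay above all LOXP libraries in 8 of the 10, where 20.4% of tested genes had this pattern, and below them in 1, *Nfe2l2*, where 20.3% had. Together the 10 genes took from 0.292% to 0.317% of counted reads in LOXP and from 0.477% to 0.487% in STINGLKO. A bulk library cannot tell a change in RNA per cell from a change in the number of cells that express a gene.

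**Figure D2:**
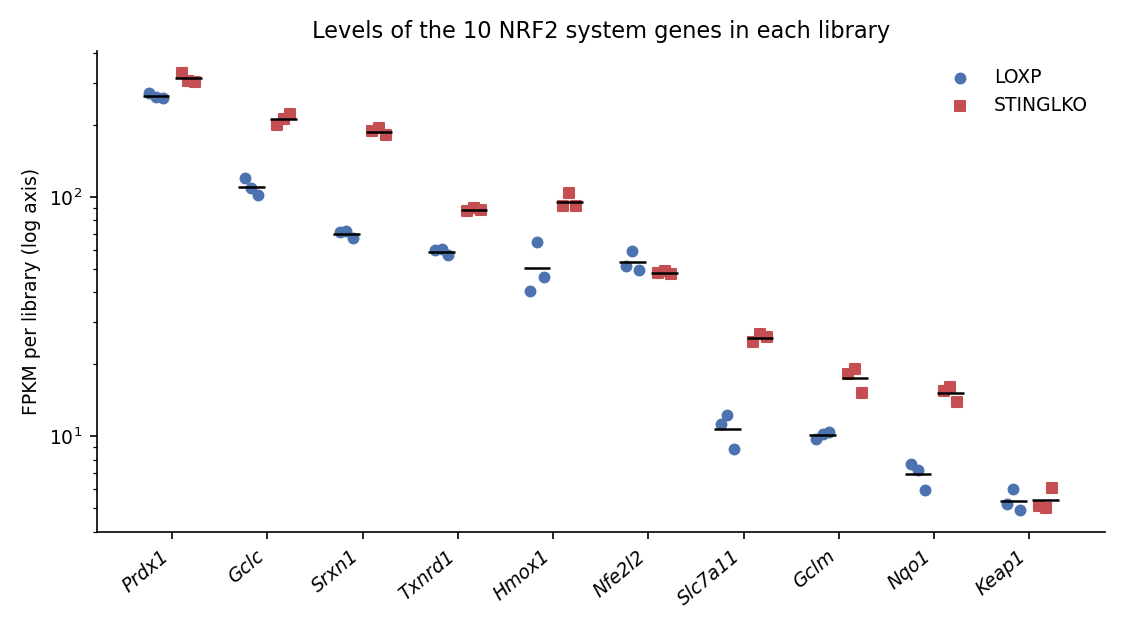
FPKM of the 10 genes in each library on a log axis, with circles for LOXP, squares for STINGLKO and a line for each group's mean (n = 3 per group). The squares lie above the circles in 8 genes, just below them for *Nfe2l2*, and among them for *Keap1*.

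The genes for NRF2 and its inhibitor did not pass the test in either direction. *Nfe2l2* (ENSMUSG00000015839, chromosome 2, 75505857 to 75534985 on GRCm39) had 51.5, 59.2 and 49.5 FPKM in LOXP and 48.1, 49.0 and 47.6 in STINGLKO. Each STINGLKO library was a little below each LOXP library, and LOXP replicate 2 stood above the rest. The log2 fold change was -0.18 (SE 0.08, edgeR adjusted p = 0.135), with a 95% interval from -0.36 to -0.0022 that is not adjusted for the number of genes. Without LOXP replicate 2 it was -0.09. *Keap1* (ENSMUSG00000003308, chromosome 9, 21141026 to 21150657) had 5.22, 6.02 and 4.91 FPKM in LOXP and 5.13, 5.01 and 6.08 in STINGLKO. The groups overlapped, with a log2 fold change of -0.03 (SE 0.11, edgeR adjusted p = 0.864) and a 95% interval from -0.27 to 0.21, so that a change of *Keap1* by the size seen in *Gclm* lies outside the interval. The direction of *Keap1* turned to 0.069 without LOXP replicate 2, and its sign also changed in other alternatives.

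The mRNA of the activator was set against that of its inhibitor within each library, as the ratio of their FPKM. The balance of the proteins was not measured. *Nfe2l2* to *Keap1* was 9.85, 9.83 and 10.07 in LOXP and 9.37, 9.77 and 7.84 in STINGLKO. The means were 9.92 ± 0.131 and 8.99 ± 1.02 (SD, n = 3 per group). The STINGLKO libraries were lower without overlap, with p = 0.1 in an exact two-sided permutation test, the smallest that 3 libraries against 3 allow, and 0.05 cannot be reached. STINGLKO replicate 3 was the lowest, and the log2 ratio of the group means was -0.14 with it and -0.051 without it.

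The mRNAs of the members that act in cystine import and glutathione synthesis were all higher. Transport, enzyme activity and glutathione itself were not measured here. *Slc7a11* (ENSMUSG00000027737, chromosome 3, 49846975 to 50398063) encodes the light chain of the cystine-glutamate antiporter, which brings in the precursor of cysteine. It had 11.2, 12.2 and 8.89 FPKM in LOXP and 24.8, 26.8 and 25.9 in STINGLKO. All STINGLKO libraries were well above the highest LOXP library, and the spread was wider in LOXP, where the coefficient of variation of normalized counts was 16.7% against 4.51%. Its log2 fold change was 1.22 (SE 0.11, edgeR adjusted p = 2.47e-04), a rise of 2.34-fold.

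Glutamate-cysteine ligase, the rate-limiting enzyme of glutathione synthesis, has a catalytic subunit encoded by *Gclc* and a modifier subunit encoded by *Gclm*. *Gclc* (ENSMUSG00000032350, chromosome 9, 77661817 to 77701767) had 120.1, 109.2 and 101.7 FPKM in LOXP and 199.98, 211.1 and 221.9 in STINGLKO. This was a log2 fold change of 0.90 (SE 0.07, edgeR adjusted p = 9.05e-05). *Gclm* (ENSMUSG00000028124, chromosome 3, 122039206 to 122064381) had 9.77, 10.3 and 10.4 FPKM in LOXP and 18.2, 19.1 and 15.1 in STINGLKO. It rose by a log2 fold change of 0.75 (SE 0.10, edgeR adjusted p = 0.00123). Both subunits separated the groups without overlap, and *Gclm* varied more among the STINGLKO libraries than in LOXP, with replicate 3 the lowest of them.

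The FPKM ratio of *Gclm* to *Gclc* was 0.0814, 0.0940 and 0.103 in LOXP and 0.0910, 0.0904 and 0.0681 in STINGLKO. The catalytic subunit was thus the more abundant mRNA per length in each library. The ratio averaged 0.0927 ± 0.0107 and 0.0832 ± 0.0130 (SD, n = 3 per group), and the groups overlapped (exact two-sided permutation test, p = 0.4). A difference in the balance of the subunit mRNAs was not detected, with 3 libraries a group. The log2 ratio of the group means went from -0.16 to -0.031 without STINGLKO replicate 3.

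Genes of the thioredoxin and peroxiredoxin branch, which passes electrons from NADPH to oxidized protein thiols and peroxides, included the member with the largest change. *Srxn1* (ENSMUSG00000032802, chromosome 2, 151947436 to 151953296) encodes sulfiredoxin, which restores peroxiredoxins that peroxide has over-oxidized. It had 71.4, 71.8 and 67.6 FPKM in LOXP and 188, 194 and 181 in STINGLKO. The groups were far apart compared with their spread, with coefficients of variation of 4.0% and 4.5%. The log2 fold change of 1.38 (SE 0.06, edgeR adjusted p = 2.86e-06) is a rise of 2.61-fold, and by its unadjusted p *Srxn1* ranked 17 of the 14151 genes.

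*Txnrd1* (ENSMUSG00000020250, chromosome 10, 82669785 to 82733546) encodes the cytosolic thioredoxin reductase. It had 59.8, 60.4 and 57.1 FPKM in LOXP and 87.0, 89.9 and 88.5 in STINGLKO, a log2 fold change of 0.55 (SE 0.05, edgeR adjusted p = 2.24e-04). The libraries of each group were close together, so that a rise of 1.46-fold stood clear of the spread. *Prdx1* (ENSMUSG00000028691, chromosome 4, 116542741 to 116558019), the peroxiredoxin gene among the members and a substrate of sulfiredoxin as protein, had 272.7, 262.4 and 258.4 FPKM in LOXP and 330.7, 304.4 and 302.8 in STINGLKO. Its log2 fold change of 0.21 (SE 0.05, edgeR adjusted p = 0.0226) was the smallest among the 8 that rose. *Prdx1* fell short of the threshold without LOXP replicate 2 or 3 or STINGLKO replicate 1 or 2, with adjusted p of 0.0508, 0.0772, 0.0823 and 0.0554, and in edgeR's exact test (0.0505). Processed pseudogenes of *Prdx1* could share its reads.

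The remaining members act on quinones and heme. *Nqo1* (ENSMUSG00000003849, chromosome 8, 108114857 to 108129838) encodes a quinone reductase and is widely used as a readout of NRF2. It had 7.70, 7.21 and 5.96 FPKM in LOXP and 15.4, 16.0 and 13.9 in STINGLKO. Its counts ran from 142 to 190 in LOXP and from 363 to 461 in STINGLKO, and the groups did not overlap. Its log2 fold change was 1.08 (SE 0.12, edgeR adjusted p = 6.16e-04), and it was 0.98 when LOXP replicate 3 was left out, under the size that the study's criteria ask for.

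*Hmox1* (ENSMUSG00000005413, chromosome 8, 75820249 to 75827217) encodes heme oxygenase 1, which opens the heme ring and releases iron. It had 40.6, 64.9 and 46.2 FPKM in LOXP and 91.3, 103.8 and 91.5 in STINGLKO. LOXP replicate 2 stood above the other LOXP libraries yet below each STINGLKO library, and the LOXP coefficient of variation of 26.7% was the widest of the 10 genes. *Hmox1* rose by a log2 fold change of 0.88 (SE 0.16, edgeR adjusted p = 0.00653), and by 1.12 without LOXP replicate 2, which brought it past the fold change criterion.

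**Figure D3:**
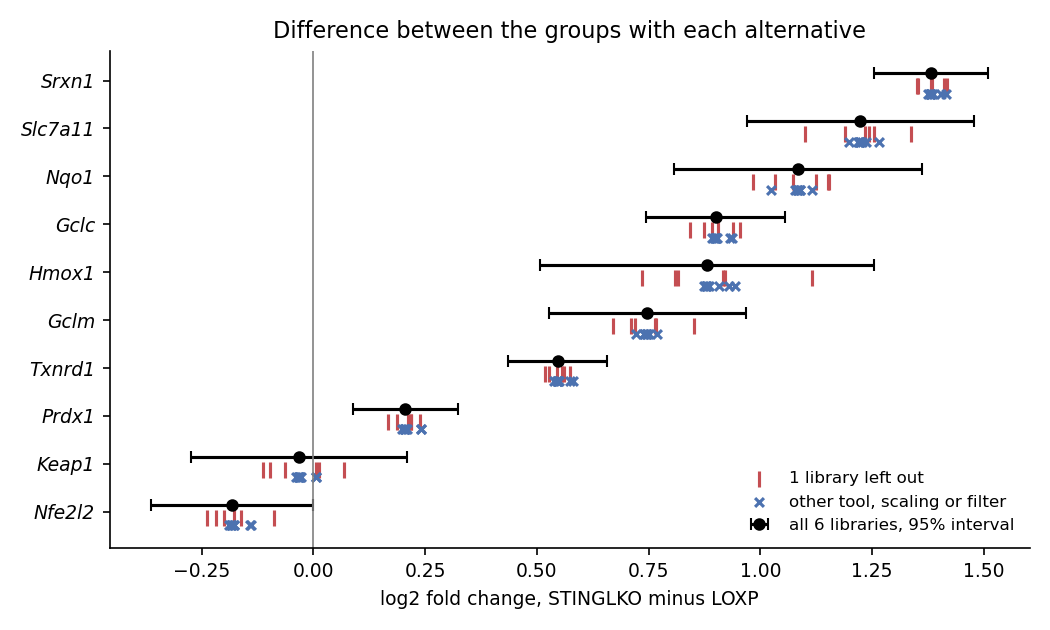
The log2 fold change of each gene between the groups (STINGLKO minus LOXP), with the value from all 6 libraries and its 95% interval in black. Red bars leave out 1 library each and blue crosses use another tool, scaling, filter or block. For 8 genes each mark lies to the right of 0, from 0.17 for *Prdx1* to 1.42 for *Srxn1*, and the marks of *Keap1* fall on both sides.

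In order of FPKM in LOXP the genes stood as *Prdx1*, *Gclc*, *Srxn1*, *Txnrd1*, *Nfe2l2*, *Hmox1*, *Slc7a11*, *Gclm*, *Nqo1* and *Keap1*. Among neighbours in this order, the ranges of *Txnrd1* and *Nfe2l2*, *Nfe2l2* and *Hmox1*, *Slc7a11* and *Gclm*, and *Nqo1* and *Keap1* overlapped. In STINGLKO *Hmox1* stood above *Txnrd1*, *Nfe2l2* came after both, and the only neighbours whose ranges overlapped were *Gclm* and *Nqo1*, which had not overlapped in LOXP. Within LOXP, replicate 2 had the highest normalized count for 7 of the 10 genes and replicate 3 the lowest for 8. Within STINGLKO, replicate 2 had the highest for 7 and replicate 3 the lowest for 6.

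The wider pathway was read from hand-written lists. Outside the members they held 69 genes, of which 67 were tested. Of these, 23 were called higher and 7 lower, beside the 11.5% and 11.6% of all tested genes given above, and the median log2 fold change was 0.10. By the study's criteria *Abcc4* was called higher and *Gstm3* lower. The NADPH list moved most evenly, with 5 of 6 genes higher, while the list of NRF2's partners and regulators had 1 higher and 1 lower of 11. The counts of each list are to be read against the same shares of 11.5% and 11.6%.

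**Figure D4:**
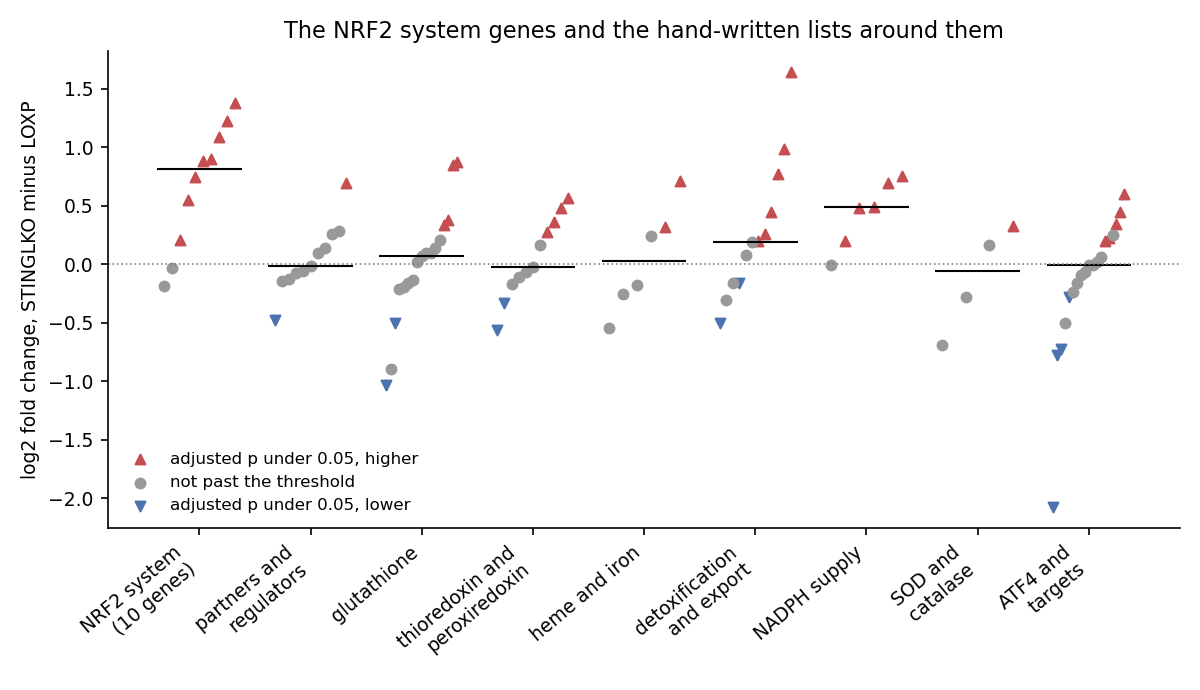
The log2 fold change (STINGLKO minus LOXP) of each tested gene in the NRF2 system and in the lists around it, with triangles for genes past an adjusted p of 0.05 and a line at each list's median. The medians run from -0.06 for superoxide dismutases and catalase to 0.49 for NADPH supply among the wider lists, against 0.81 for the 10 genes.

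Among the partners and regulators, *Mafk*, a small MAF protein that pairs with NRF2, rose from 12.1 ± 1.74 to 20.0 ± 1.14 FPKM (SD, n = 3 per group), with a log2 fold change of 0.70 (edgeR adjusted p = 0.00183). *Bach1*, a repressor that competes for the same elements and is best known for holding down *Hmox1*, fell from 10.5 ± 2.30 to 7.70 ± 0.446 FPKM, by 0.48 on the log2 scale (adjusted p = 0.0468). This call was lost without LOXP replicate 2 (-0.27, adjusted p = 0.0536) and without each STINGLKO library in turn, and it was lost in 7 of 14 alternatives in all. *Sqstm1*, which binds KEAP1, had 296 ± 56.6 and 369.6 ± 43.9 FPKM (adjusted p = 0.191), and *Cul3* had a log2 fold change of -0.01 (adjusted p = 0.916).

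In the glutathione list 4 of 17 tested genes rose and 2 fell, beside 11.5% called higher and 11.6% lower over all tested genes. *Gsr*, the reductase that regenerates glutathione, went from 152 ± 9.06 to 202 ± 3.95 FPKM (SD, n = 3 per group), with a log2 fold change of 0.38 (edgeR adjusted p = 0.00298). Among the glutathione transferases, *Gsta1*, *Gsta2* and *Gstm4* rose with log2 fold changes of 0.87, 0.85 and 0.34. *Gsta4* and *Gstm3* fell by 0.50 and 1.03 on the log2 scale. These families have close copies between which reads can be split, so the value of each copy is uncertain, and *Gstm4* passed in 8 of 14 alternatives. *Slc3a2*, the heavy chain partner of the *Slc7a11* product, had 94.4, 95.9 and 88.9 FPKM in LOXP and 95.2, 98.6 and 97.0 in STINGLKO (log2 fold change 0.02, adjusted p = 0.797). *Gss*, the second enzyme of glutathione synthesis, had a log2 fold change of 0.10 (adjusted p = 0.592). *Gpx1*, a glutathione peroxidase gene, had from 121 to 292 FPKM in LOXP and from 68.7 to 161 in STINGLKO. It did not pass (log2 fold change -0.90, edgeR adjusted p = 0.159). Of the 17 tested genes, 10 had positive log2 fold changes.

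In the thioredoxin list 4 of 11 genes rose and 2 fell, beside 11.5% called higher and 11.6% lower over all tested genes. *Glrx*, which encodes a glutaredoxin, *Prdx6*, *Txnrd3* and *Txn1*, the gene of cytosolic thioredoxin, rose with log2 fold changes of 0.57, 0.48, 0.36 and 0.27 (edgeR adjusted p from 0.00375 to 0.0156). *Txnip*, the thioredoxin-binding inhibitor, fell by 0.56 and *Txnrd2*, the mitochondrial reductase, by 0.33 on the log2 scale (edgeR adjusted p = 0.00445 and 0.0119). *Prdx2*, *Prdx3*, *Prdx4* and *Prdx5* had log2 fold changes from -0.17 to -0.03 and did not pass. *Glrx* lost its call without STINGLKO replicate 3 (adjusted p = 0.0538), and *Txnrd3* lost its call without STINGLKO replicate 2 or 3 (0.0506 and 0.0554).

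Heme and iron genes gave 2 rises in 6, beside 11.5% called higher over all tested genes. *Blvrb*, the biliverdin reductase B gene, rose from 22.02 ± 3.12 to 37.0 ± 3.67 FPKM (SD, n = 3 per group), with a log2 fold change of 0.71 (edgeR adjusted p = 0.00371). *Blvra*, the biliverdin reductase A gene, had a log2 fold change of 0.24 and did not pass (edgeR adjusted p = 0.149). *Fth1*, the ferritin heavy chain gene, rose with a log2 fold change of 0.32 (adjusted p = 0.00179). *Ftl1*, the light chain gene, had from 304 to 635 FPKM in LOXP and from 335 to 429 in STINGLKO and did not pass (adjusted p = 0.163).

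In the detoxification and export list 6 of 12 genes rose and 2 fell, beside 11.5% called higher and 11.6% lower over all tested genes. *Abcc4*, an export pump for conjugates and bile acids, went from 3.10 ± 0.431 to 9.90 ± 0.279 FPKM (SD, n = 3 per group), with a log2 fold change of 1.64 (edgeR adjusted p = 5.17e-05), larger than that of any of the 10 members. *Abcc1*, *Cbr3*, *Ugdh* and *Abcc2* rose with log2 fold changes of 0.99, 0.77, 0.45 and 0.26, of which *Abcc2* lost its call without LOXP replicate 3 (adjusted p = 0.0668) or STINGLKO replicate 2 or 3 (0.0845 and 0.0626). *Nqo2*, a paralog of *Nqo1*, moved the other way and fell by 0.50 (adjusted p = 0.00248). *Ephx1* fell by 0.16 (adjusted p = 0.0469) and kept its call in 4 of 14 alternatives. *Osgin1*, often counted as an NRF2 target, had a log2 fold change of -0.16 (adjusted p = 0.230).

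The NADPH list, named for the electron donor of both the glutathione and the thioredoxin branch, had 5 of 6 genes higher. Over all tested genes 11.5% were called higher. *Taldo1* and *Tkt*, of the part of the pentose phosphate pathway that does not itself form NADPH, rose with log2 fold changes of 0.75 and 0.49. *Pgd*, the second dehydrogenase of the pathway, rose from 69.1 ± 5.00 to 114 ± 3.51 FPKM (SD, n = 3 per group), with a log2 fold change of 0.69 (edgeR adjusted p = 3.46e-04). *Idh1* and *Me1* rose by 0.48 and 0.20 on the log2 scale. *G6pdx*, the entry enzyme of the pathway, had 23.7, 24.1 and 23.7 FPKM in LOXP and 23.5, 24.2 and 25.2 in STINGLKO, with a log2 fold change of -0.01 (adjusted p = 0.932). *Me1* lost its call without LOXP replicate 3 (adjusted p = 0.0658) or STINGLKO replicate 1 or 2 (0.0702 and 0.0783), and in edgeR's exact test (0.0535). Of superoxide dismutases and catalase, 1 of 4 passed, with *Cat* higher by a log2 fold change of 0.33 (adjusted p = 0.00179).

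Marker genes of other cell types and of hepatocytes moved with the groups as follows, and their part in the results above was not tested. The counts stand beside 11.5% called higher and 11.6% called lower over all tested genes. Of 20 hepatocyte markers, 15 were lower and 0 higher, and their summed FPKM ran from 17816 to 20100 in LOXP and from 13499 to 13612 in STINGLKO. *Hpx*, the second most abundant of them, had a mean FPKM of 3802 and 1548. Among 20 markers of macrophages, 17 had enough reads and 3 were lower, among them *Cd68* and not *Lyz2*, with sums from 69.8 to 87.8 in LOXP and from 56.8 to 65.5 in STINGLKO. *Cd68* made up the largest share of these sums, with a mean FPKM of 37.5 in LOXP and 21.1 in STINGLKO, and 7 of the 17 had positive log2 fold changes. One of these, *Cd5l*, had a mean FPKM of 2.67 in LOXP and 5.25 in STINGLKO and did not pass (edgeR adjusted p = 0.0853). Of the 15 endothelial markers tested, led by *Cdh5* and *Lyve1*, 1 was lower, with sums from 37.7 to 41.6 and from 35.5 to 38.8. Of 11 stellate cell markers tested, led by *Ecm1* and *Sparc*, edgeR called 0 (1 at an unadjusted p under 0.05), with sums from 19.6 to 21.9 and from 20.6 to 22.3. Of 4 cholangiocyte markers tested, 3 were lower, *Cldn4* and *Sox9* among them, and 1 higher, with sums from 119 to 140.2 and from 61.8 to 72.8. Neutrophil markers had 51 counts and lymphocyte markers 4 counts over all 6 libraries, and 3 of 8 and 10 of 11 of them were at 0 throughout.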

How the data were processed

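Total RNA of the hepatocyte cultures was sequenced in 6 libraries as paired-end reads. The authors mapped clean reads with HISAT2, and the submitters' processing notes also name fastp, StringTie, edgeR and GRCm39. The annotation, counting tool and strand setting are not given in the sources used here, so overlapping and antisense genes cannot be told apart. The authors deposited 1 table with a raw read count and an FPKM value per gene and library, in 12 columns, all mapped to samples by their titles. Where a name stood on 2 rows (*Ddit3*), the row with more reads was used.

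The test used edgeR 4.0.16 under R 4.3.3 with filterByExpr (minimum count 10), TMM factors from 0.973 to 1.02, the two-sided quasi-likelihood test without a replicate block, and Benjamini-Hochberg adjustment over 14151 genes. Called means an adjusted p under 0.05. The standard error is the log2 fold change divided by the square root of the F statistic. Replicates differed by more than counting noise (chi-square over its degrees of freedom between 7.58 and 16.05). The precision of a value is limited by the 3 libraries a group and, for genes of few reads, by the depth given above. Alternatives used DESeq2 1.42.0, limma 3.58.1 on log2(FPKM + 1) and log2(FPKM + 0.1), upper-quartile factors, edgeR's exact test, 2 other filters (at least 1 count in all, at least 10 in every library), the replicate block and each library left out. The quasi-likelihood, upper-quartile, exact, replicate block, DESeq2 and limma fits were tested on simulated counts. There limma used depth-scaled counts in place of FPKM, with a pseudocount of 1. The other filters, the pseudocount of 0.1 and the fits with a library left out were not tested in this way. Members, lists and tests were chosen with earlier results of these data known. Named beside the members are, for each list, up to 5 called genes per direction with a mean FPKM above 1, *Sting1*, the 2 most abundant markers of each list, and the 3 tested genes nearest to each of the 2 members with the smallest adjusted p, of which 1 gene is not reported here. Other genes were chosen for their role after their values were seen. Figures were drawn with matplotlib 3.10.9.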

Additional observations from a re-analysis of the deposited data

How the results depend on the processing

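The call of 8 members higher and 0 lower held in 9 of 14 alternatives, and 7 were higher in the other 5, each time for the loss of *Prdx1*. The number past the study's criteria was from 2 to 4. Over all genes, 1633 were called higher and 1641 lower, and leaving out single libraries gave from 922 to 1510 and from 1052 to 1515, with the fewest without STINGLKO replicate 2 (922 and 1052) and replicate 1 (1058 and 1088). The 5 higher calls of the ATF4 list became 3 in edgeR's exact test and when all genes with any read were kept, and from 3 to 5 with single libraries left out. *Keap1*, never called, turned to 0.0047 and 0.0055 in limma-trend with a pseudocount of 1 and 0.1 FPKM, to 0.069 without LOXP replicate 2 and to 0.0061 and 0.013 without STINGLKO replicate 1 and 2, with -0.11 as its lowest, without STINGLKO replicate 3. *Sting1* ran from -0.26 to 0.11 with single libraries left out, positive without LOXP replicate 3 (0.062) and STINGLKO replicate 3 (0.11). The cause was not tested. Of 686 values of 49 named genes under the alternatives, 621 kept direction and side of the threshold, 58 lost their call and 7 reversed. Deviations of equally numbered libraries correlated with r from 0.0134 to 0.12 over genes, and those of unequally numbered libraries from -0.13 to 0.046. With 3 libraries a group these values cannot decide whether replicate numbers pair the libraries. With the replicate number as a block, 8 members were higher and 0 lower, and 26 wider pathway genes were higher and 7 lower, against 23 and 7 without it, and of the named genes that had been called, *Cth* lost its call (adjusted p = 0.0693).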

Other observations

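Genes of the ATF4 branch were read beside the NRF2 system because ATF4, the transcription factor of the integrated stress response, is also known to drive *Slc7a11*. Of 19 genes listed, all tested, 5 were higher and 4 lower in the libraries labelled STINGLKO, beside 11.5% and 11.6% of all tested genes, with a median log2 fold change of -0.0065. The 5 became 3 without LOXP replicate 2, LOXP replicate 3, STINGLKO replicate 2 or STINGLKO replicate 3. *Atf4* itself had a log2 fold change of -0.07 (edgeR adjusted p = 0.773), and the classical targets *Asns*, *Trib3*, *Chac1* and *Ddit3* did not pass. The genes that rose encode serine, cysteine and proline synthesis enzymes and an amino acid transporter. *Phgdh* went from 82.6 ± 3.56 to 128 ± 4.80 FPKM (SD, n = 3 per group), and *Slc7a5*, *Psat1*, *Aldh18a1* and *Cth* had log2 fold changes of 0.45, 0.34, 0.22 and 0.20, of which *Aldh18a1* and *Cth* lost their calls in 7 and 8 of 14 alternatives. *Fgf21*, a secreted stress hormone of the liver, fell from 10.6 ± 1.54 to 2.60 ± 0.592 FPKM, by 2.07 on the log2 scale (adjusted p = 3.11e-04). *Ppp1r15a*, *Ddit4* and *Atf3* fell by 0.77, 0.72 and 0.28, and *Atf3* lost its call in 5 of 14 alternatives.

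Genes whose normalized log2 levels over the 6 libraries were among the nearest to those of *Srxn1*, by the root mean square difference after centring among 11101 others, were *Trdc* (0.0806) and *Mup14* (0.12). The genes compared had a mean FPKM above 1 in at least 1 group. *Trdc*, named for a T cell receptor constant region, had 0.523 in LOXP and 1.42 in STINGLKO, so it entered only through STINGLKO. Lymphocyte markers had 4 counts in all in these libraries. *Mup14* has near-identical copies, so its value is uncertain. Nearest to *Gclc* were *Mdn1* (0.0488), *Nid1* (0.0494) and *Rnps1* (0.0633), with log2 fold changes of 0.89, 0.85 and 0.86. The genes were picked for likeness over these same libraries, so log2 fold changes close to that of the member follow from the choice.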
